A study of Mus musculus with 4 samples.

Results

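The Sall genes encode zinc finger transcription factors, and their transcripts were followed here in the mouse autopod, the distal part of the limb bud, from which hand and foot arise. The family has 4 genes, Sall1 to Sall4, among 18193 genes that the array names singly. They were measured by all 7 probe sets that the platform annotation assigns to exactly 1 of them, of 45101 probe sets in the table: 2 for Sall1, 1 for Sall2, 2 for Sall3 and 2 for Sall4. All 7 were bright enough to be tested, with a geometric mean above 39.6 signal units. RNA of C57BL/6 embryos at E11.25, in mid-gestation, was hybridised to 4 arrays, 2 from Hox13dKO embryos and 2 from wild type. Hox13dKO embryos are homozygous for a null allele of Hoxa13 and for HoxDdel, a deletion that removes Hoxd11, Hoxd12 and Hoxd13 together, and wild-type embryos carry neither allele. Both alleles are constitutive, so every cell of the mutant embryo carries them. The dissected tissue covered the Hoxd13 expression domain of fore- and hindlimb buds, and each value is thus an average over both limbs. The samples are titled biological replicates, and how many embryos each sample pooled is not stated in the labels.

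Vertebrate Sall proteins are relatives of Drosophila spalt. They carry pairs of C2H2 zinc fingers along the protein and, near the N-terminus, a short motif that recruits the NuRD histone deacetylase complex, through which they act mainly as repressors. Changes in human SALL1 cause Townes-Brocks syndrome and changes in SALL4 cause Duane-radial ray syndrome, both with malformed thumbs. In the mouse limb, Sall1 and Sall3 act together in the autopod, where their proteins modulate the activity of Hox proteins. Sall4 acts early, downstream of Tbx5 in the forelimb and together with Gli3 in the hindlimb. Sall2 is best known from the nervous system.

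The targeted genes were read first, as a check of the labels. Hoxd13 read 5.79 and 9.58 signal units on the Hox13dKO arrays and 14540 and 16117 on the wild-type arrays. Hoxa13 read 52.4 and 58.01 against 842 and 1463, and Hoxd12 read 5.23 and 33.5 against 1208 and 2171. Hoxd11, which the HoxDdel allele removes, still read 348 and 454 units against 1831 and 1745, well above the floor of 14.1 units to which lower signals were raised. Where its probes lie relative to the deletion is not known here, so this signal goes unassigned and checks the labels less well than Hoxd13 does. All 4 genes passed the test (limma, adjusted p from 6.41e-07 to 0.00778), and their arrays separated by genotype as labelled. Of the 15 markers fixed for autopod mesenchyme, 15 passed the brightness filter, which 71.9% of all genes passed. Hoxd12 and Hoxd13 are among the 15 and passed through their wild-type signals. Markers outside the targeted genes include Prrx1, Msx1 and Lhx9. Of the 15, 11 read lower in Hox13dKO and 4 read higher, where 45.8% of all genes read higher. The 11 include Hoxa13, Hoxd12 and Hoxd13, which the alleles target, so this count is no result about the mesenchyme. The median signal of an array was 66.1 units on Hox13dKO replicate 1, 81.2 on Hox13dKO replicate 2, 65.8 on wild type replicate 1 and 85.7 on wild type replicate 2, thus lower on both replicate 1 arrays.

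Among the Sall genes, Sall3 showed the widest gap between genotypes, by its brighter probe set only, and none of the 7 probe sets passed the threshold. By its brighter probe set Sall3 read 2.39-fold higher in Hox13dKO, while its other probe set read lower. Sall4 read lower in Hox13dKO by both of its probe sets and Sall1 read slightly higher by both. Sall2 differed least. In limma, 0 of 7 had an adjusted p under 0.05 and 1 had an unadjusted p under 0.05, beside 0.207% and 6.26% of all 27022 probe sets tested. In 3 of 7 the arrays of the genotypes did not overlap, where 34.6% of all probe sets tested had that separation. With 2 arrays against 2 there are 6 ways to split the arrays, so an exact two-sided permutation test of a single value cannot give a p below 0.333.

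**Figure D1:**
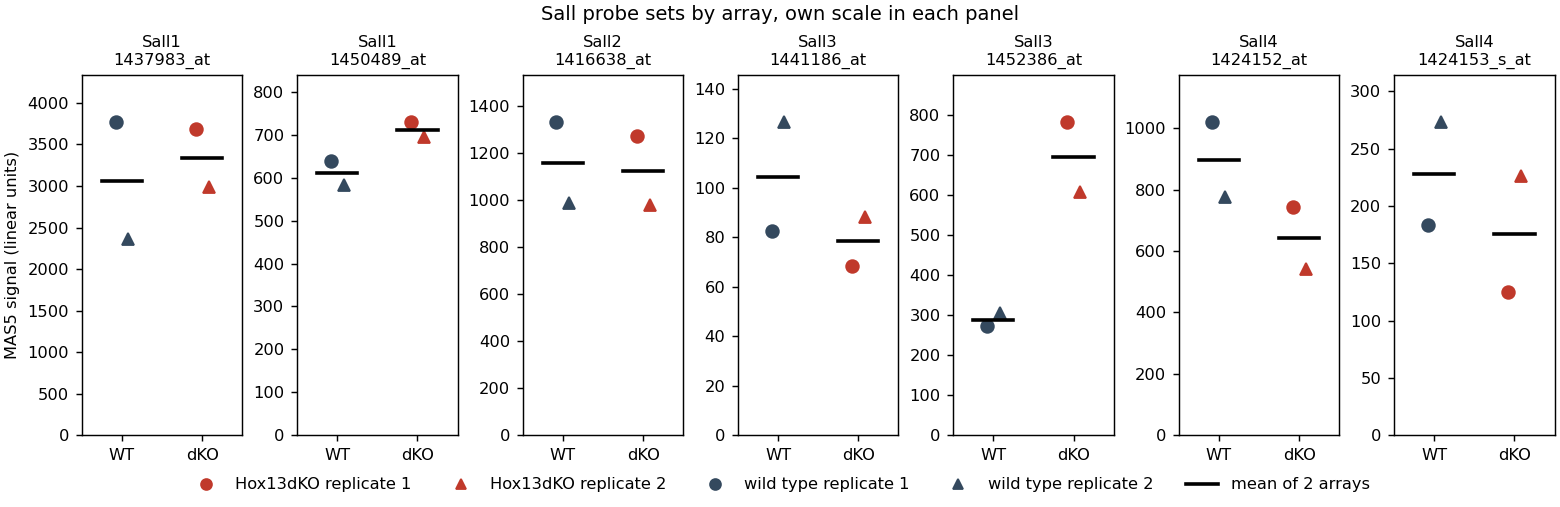
MAS5 signal (linear units, each panel with its own axis from 0) of the 7 Sall probe sets in wild type (WT) and Hox13dKO (dKO), 1 point per array, with a bar at the mean of 2 arrays. The arrays separate by genotype for Sall3 1452386_at and Sall1 1450489_at, higher in Hox13dKO, and for Sall4 1424152_at, lower in Hox13dKO.

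Sall3, which acts with Sall1 in the forming hand and foot, was measured by 2 probe sets that did not go the same way. The brighter probe set, 1452386_at, read 781 and 608 units in Hox13dKO and 273 and 304 in wild type. Both Hox13dKO arrays were above both wild-type arrays, and over the 4 pairings of arrays the log2 gap ran from 0.999 to 1.52. The mean signal was 695 ± 122 units for Hox13dKO and 289 ± 22.3 units for wild type (± SD over 2 arrays). The fitted log2 difference was 1.26 ± 0.22 (SE), with a 95% interval from 0.75 to 1.77, or 1.68-fold to 3.41-fold. The adjusted p in limma was 0.103 over all probe sets tested, and 124 probe sets (0.459%) had an adjusted p as low or lower. Within a genotype the arrays differed by less than the genotypes did: the replicate 1 array was 0.36 above the replicate 2 array in Hox13dKO and 0.16 below it in wild type, on the log2 scale.

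The call of this Sall3 probe set changed to passing when either wild-type array was left out. More probe sets also passed over the whole array in both of those fits, so the change is not particular to Sall3. Without wild type replicate 1 the log2 difference was 1.18, and without wild type replicate 2 it was 1.34. Without Hox13dKO replicate 1 it was 1.08, and without Hox13dKO replicate 2 it was 1.44. Each of these fits takes the spread of the genotype with 2 arrays for the genotype with 1. Over all alternative settings the adjusted p of this probe set ranged from 0.00487 to 0.645.

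The dimmer Sall3 probe set, 1441186_at, read 68.6 and 88.03 units in Hox13dKO and 82.5 and 126 in wild type. Its arrays overlapped, since Hox13dKO replicate 2 lay above wild type replicate 1. The log2 difference was -0.39 ± 0.47 (SE; 95% interval -1.48 to 0.69; adjusted p = 0.961 in limma). These signals are dim, and whether they lie above background is not known here, because detection calls were not used. Averaging the log2 signals of both probe sets gave Sall3 a difference of 0.43 (adjusted p = 0.790 in limma).

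The disagreement was measured within arrays, as the log2 signal of the brighter probe set minus that of the dimmer one. For Sall3 this gap was 3.51 and 2.79 on the Hox13dKO arrays and 1.73 and 1.27 on the wild-type arrays, so both Hox13dKO arrays were above both wild-type arrays, a separation that 27.5% of all pairs of probe sets showed. The gap widened by 1.65 ± 0.41 (SE; 95% interval 0.59 to 2.71). Over all 10467 such pairs of probe sets of 1 gene on the array, 0 passed an adjusted p of 0.05 in limma and 326 (3.11%) had an unadjusted p under 0.05. The Sall3 pair had an unadjusted p of 0.0106 and an adjusted p of 0.999 in the limma fit. A larger change of the gap, in either direction, was seen in 0.984% of the pairs. Log2 differences of opposite sign were common, at 40% of the pairs, and at least 1 other probe set opposed the brightest in 51.3% of 6128 genes with several tested probe sets. Where the probes of either Sall3 probe set lie on the transcript is not known here.

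**Figure D2:**
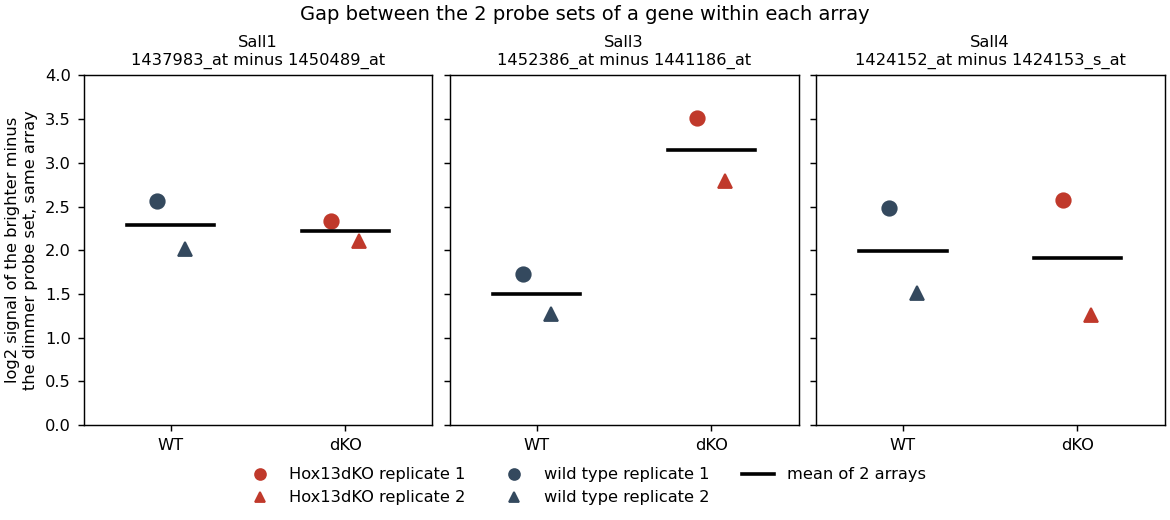
Log2 signal of the brighter minus the dimmer probe set of Sall1, Sall3 and Sall4 on each array, in wild type (WT) and Hox13dKO (dKO), with a bar at the mean of 2 arrays. The gap is wider in Hox13dKO for Sall3, at 3.51 and 2.79 against 1.73 and 1.27, and overlaps between genotypes for Sall1 and Sall4.

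Sall1, the Townes-Brocks gene and partner of Sall3 in the autopod, differed little between genotypes by either probe set. The brighter one, 1437983_at, read 3682 and 2993 units in Hox13dKO and 3766 and 2358 in wild type. The arrays overlapped, with the highest and the lowest signal both in wild type. Its log2 difference was 0.16 ± 0.22 (SE), with a 95% interval from -0.36 to 0.67 (adjusted p = 0.968 in limma), so a change up to 1.59-fold higher or down to 0.780 of the wild-type level lies within the interval. The other probe set, 1450489_at, read 729 and 696 units in Hox13dKO and 639 and 583 in wild type. There both Hox13dKO arrays were above both wild-type arrays, but the step was small, 0.22 ± 0.18 (SE; 95% interval -0.18 to 0.63; adjusted p = 0.931 in limma). Both probe sets had positive differences, and the gap between them changed by -0.07 ± 0.35 (SE; 95% interval -0.98 to 0.84). The Sall3 and Sall1 values thus stand side by side at 1.26 and 0.16 by the brightest probe set, and no test of the difference between the genes was made.

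Sall4, the gene of Duane-radial ray syndrome, read lower in Hox13dKO by both probe sets without passing the test, and the second of them turned to 0.017 without Hox13dKO replicate 1. The brighter one, 1424152_at, read 744 and 541 units in Hox13dKO and 1020 and 776.8 in wild type. Both Hox13dKO arrays lay below both wild-type arrays, but Hox13dKO replicate 1 and wild type replicate 2 were nearly level, only 0.06 apart on the log2 scale. The mean was 643 ± 143 units for Hox13dKO and 898 ± 172 units for wild type (± SD over 2 arrays). The log2 difference was -0.49 ± 0.22 (SE), 1.40-fold lower in Hox13dKO, with a 95% interval from -1.004 to 0.03 (adjusted p = 0.834 in limma).

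The second Sall4 probe set, 1424153_s_at, read 125 and 226 units in Hox13dKO and 183 and 273 in wild type. Its arrays overlapped, and its log2 difference was -0.41 ± 0.39 (SE; 95% interval -1.30 to 0.48; adjusted p = 0.941 in limma). The suffix of this probe set marks probes that can match several transcripts. The sizes by both Sall4 probe sets were alike, and the gap between them changed by -0.08 ± 0.59 (SE), an interval from -1.63 to 1.47 that leaves room for large disagreement.

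Sall2, the member best known from neural tissue, had 1 probe set, 1416638_at. It read 1270 and 980 units in Hox13dKO and 1330 and 986 in wild type. Each replicate number gave almost the same signal in both genotypes, and the replicates differed more than the genotypes. The log2 difference was -0.04 ± 0.21 (SE; 95% interval -0.51 to 0.44; adjusted p = 0.987 in limma), which allows up to 1.35-fold higher or down to 0.701 of the wild-type level.

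**Figure D3:**
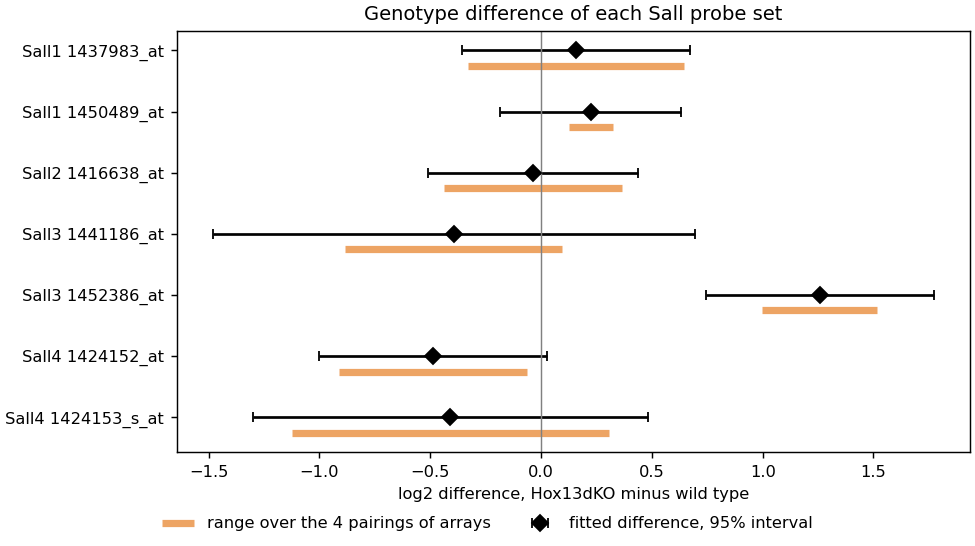
Log2 difference, Hox13dKO minus wild type, of each Sall probe set, as the fitted value with its 95% interval (diamonds, n = 2 arrays per genotype) and as the range over the 4 pairings of arrays (bars). The interval lies above 0 for Sall3 1452386_at alone, from 0.75 to 1.77, and that probe set did not pass after adjustment over all probe sets.

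The spread within a genotype followed the replicate number for most members. The share of all probe sets that did so was not counted. Array medians also differed by replicate number, but were lower on both replicate 1 arrays, opposite to the step in most of these probe sets. The source of the step was not tested, and it is not read as a trait of Sall genes. In 4 of 7 probe sets, both of Sall1, the one of Sall2 and the brighter one of Sall4, the replicate 1 array read above the replicate 2 array in both genotypes. For Sall1 1437983_at that step was 0.30 in Hox13dKO and 0.68 in wild type on the log2 scale, larger than its genotype difference of 0.16. In 2 of 7, the dimmer probe sets of Sall3 and Sall4, replicate 1 read below replicate 2 in both genotypes, by -0.85 in Hox13dKO and -0.58 in wild type for Sall4 1424153_s_at. Only Sall3 1452386_at had steps of opposite direction.

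With all 4 arrays kept, other normalization or a constant added before log2 moved the log2 differences of the members little. Filter, variance model, replicate block and dropping of other probe sets cannot change a fitted log2 difference. No Sall signal lay at the floor, so leaving the floor out changed none either. By its brightest probe set or the mean of its probe sets, Sall1 differed by 0.15 to 0.19, Sall4 by -0.49 to -0.45 and Sall2 by -0.04 to -0.0014. Sall3 stayed between 1.21 and 1.29 by its brighter probe set, apart from the 0.43 of its probe sets averaged.

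**Figure D4:**
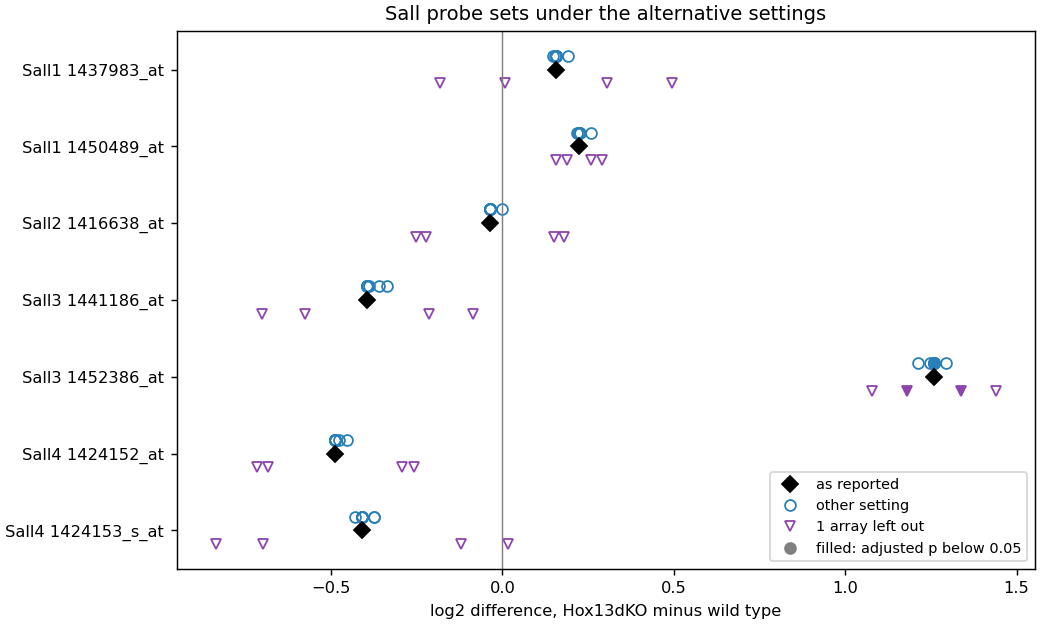
Log2 difference, Hox13dKO minus wild type, of each Sall probe set as reported (diamonds), under other settings of processing and fit (circles) and with 1 array left out (triangles), filled where the limma adjusted p was below 0.05. The points of Sall3 1452386_at run from 1.08 to 1.44, and those of Sall1 1437983_at, Sall2 1416638_at and Sall4 1424153_s_at lie on both sides of 0 when an array is left out.

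Limb regulators that act with or around Sall genes differed in both directions, and none passed. The list was chosen with earlier results of these data known, so its counts are not independent of these arrays. Of 21 listed, 20 were measured and tested, 0 passed an adjusted p of 0.05 in limma and 9 had an unadjusted p under 0.05, where 0.306% of 13072 genes passed by their brightest probe set and 7.25% had an unadjusted p under 0.05. Their median log2 difference was 0.21, with 12 above 0 and 8 below, beside a median of -0.03 over all genes, of which 45.8% were above 0. The lowest p-values were those of Epha3, a receptor of cell adhesion and sorting in the limb, at 0.93 ± 0.21 (SE), and Gli1, a readout of Hedgehog signalling, at -0.90 ± 0.22. Fgf8, the growth signal of the apical ridge, differed by 0.83 ± 0.22 and Irx3, a homeobox gene of the anterior limb, by 0.97 ± 0.30. The arrays of these 4 genes separated by genotype, as did those of 37.2% of all genes, and the 4 were picked for their low p. The other Epha3 probe sets differed in the same direction, by 1.08, 0.75 and 1.18.

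Tbx5, Gli3 and Zbtb16, members of this list with a known tie to Sall4, were picked out after their values were seen, so the direction they share is no result. Tbx5, the forelimb T-box gene that activates Sall4, read 661 and 839 units in Hox13dKO and 261 and 515 in wild type. Gli3, which acts with Sall4 in the early hindlimb bud, read 6444 and 4319 against 3901 and 3491. Zbtb16, a zinc finger gene of proximal limb patterning that acts with Sall4, read 336 and 207 against 93.6 and 143. By the brightest probe set their log2 differences were 1.02 ± 0.32, 0.52 ± 0.19 and 1.18 ± 0.38 (SE). None was past the threshold (adjusted p from 0.540 to 0.684 in limma). These genes, like Shh and Hand2, also have other probe sets, whose values are not given here. Other members of the list read lower, among them Shh (-1.32 ± 0.42) and Hand2 (-0.53 ± 0.23), and Fgf10 differed by 0.08 ± 0.45 with overlapping arrays.

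The NuRD subunits, the corepressor that Sall proteins recruit, differed by small steps. All 13 were tested, 0 passed in limma and 0 had an unadjusted p under 0.05, beside 0.306% and 7.25% of all genes, so these counts do not set them apart. Their log2 differences ran from -0.19 to 0.12 with a median of -0.02. Gatad2b, a zinc finger subunit, had the lowest p at -0.19 ± 0.18 (SE), followed by Mta2 (-0.13 ± 0.13), the deacetylase gene Hdac1 (-0.12 ± 0.12) and Mta1 (0.12 ± 0.13). Other Gatad2b probe sets did not share 1 direction, at -0.33, -0.04 and 0.03, and at 0.55 for a probe set too dim to be tested. A second Mta1 probe set, also too dim, differed by -0.06.

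Pluripotency factors, which work with Sall4 in stem cells, were dim in the autopod. Of 10 listed, 5 passed the brightness filter, which 71.9% of all genes passed. Of those 5, 0 passed the test in limma and 0 had an unadjusted p under 0.05, where 0.306% and 7.25% of all genes did, and their median was -0.29. Pou5f1 lay at or below the floor of 14.1 units on all 4 arrays. Sox2 differed by -0.83 ± 0.60 (SE), Lin28a, which binds the let-7 precursor, by 0.61 ± 0.47, Klf4 by -0.29 ± 0.32 and Dppa4 by -0.52 ± 0.62. A second Klf4 probe set had the opposite sign, at 0.41, as had a second Lin28a probe set, too dim to be tested, at -0.11.

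**Figure D5:**
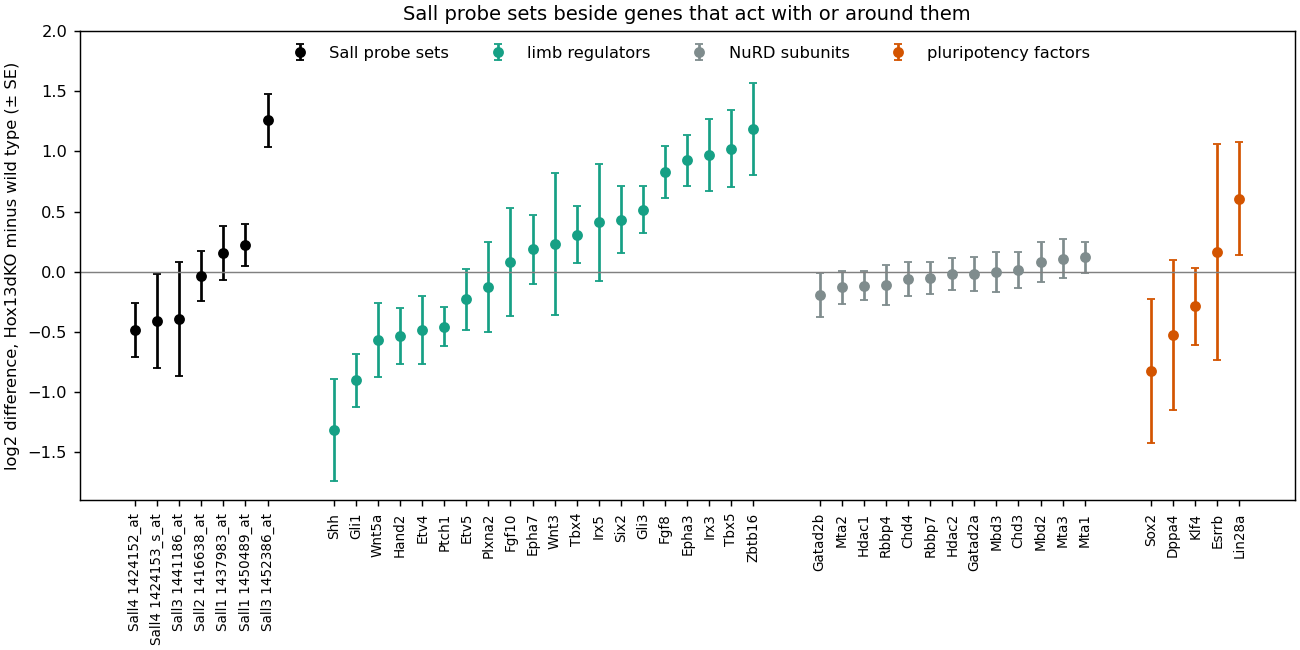
Log2 difference, Hox13dKO minus wild type, with SE (n = 2 arrays per genotype), of the 7 Sall probe sets and of the tested members of 3 gene lists by their brightest probe set, ordered by value within each list. NuRD subunits lie between -0.19 and 0.12, while limb regulators run from -1.32 for Shh to 1.18 for Zbtb16.

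Other cells in the dissected piece may also express Sall genes, and in these bulk samples fewer cells of a type and less RNA per cell cannot be told apart. Nerve and Schwann cell markers read lower in Hox13dKO in 5 of 6 tested, with summed signals of 487 and 815 against 1115 and 1287. Muscle precursor markers read higher in 5 of 7, with sums of 1792 and 3681 against 763 and 714. Of these sums Actc1 gave 880 and 2252 against 116 and 92.7, while Pax3 and Met read lower. Macrophage markers read higher in 5 of 7, with sums of 1785 and 1786 against 1283 and 1502. Of these Mrc1 gave 520 and 461 against 208 and 190, while Csf1r and Ptprc read slightly lower. Endothelial markers were above 0 in 8 of 8 (3541 and 4518 against 2969 and 3339), erythroid markers in 5 of 6 (92053 and 106659 against 75537 and 98570) and ectoderm markers in 6 of 10 (8869 and 11428 against 9258 and 8404). Pax7, Foxd3, Cx3cr1 and Hba-a1 were too dim to be tested, and none of these lists had a marker at the floor on all 4 arrays. Among these markers 1 passed the test, Actc1 of the muscle list, where 0.306% of all genes passed, and the part of such cells in the Sall3 and Sall4 values was not tested.

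The genes whose pattern over the 4 arrays lay nearest to that of each Sall gene were found by the root mean square distance between centred log2 signals, over 13068 genes. Nearest to Sall3 1452386_at were Tgfbr3 (distance 0.018, log2 difference 1.23), Mab21l1 (0.043, 1.27) and Gpc5 (0.059, 1.23). Only 7 genes lay within 0.1 of it, while 146 lay that near to Sall1, 603 to Sall2 and 95 to Sall4. The distance includes the genotype gap, so near genes must have a like log2 difference, and a wide gap leaves fewer genes near. Nearest to Sall4 were Pask, Ets1 and Ttpal, at distances from 0.023 to 0.025. Nearest to Sall1 were Lpar4, Chd9 and Ubn2 (0.027 to 0.034), and nearest to Sall2 were Mcm3ap, Sptbn1 and Rev3l (0.0021 to 0.0091). With 4 arrays, likeness is a description of these samples.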

How the data were processed

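Total RNA of 4 samples was measured on 1 array each. The values are the intensity per probe set on a linear scale, made by the authors with MAS5, per the submitters' processing notes, which name no version. The deposited arrays share a 2% trimmed mean of 500.003. The number of arrays limits the precision. Of 45101 probe sets, 34958 carry 1 gene symbol, 932 several and 9211 none, and the 64 controls were left out. All 7 Sall probe sets matched RefSeq (GRCm38.p6) by gene ID.

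Signals below the 20th percentile (14.1 units) were set to that value before log2. Probe sets with a mean at or above the 40th percentile were tested, 27022 in all, with limma 3.58.1 in R 4.3.3 (lmFit, eBayes with trend, two-sided, Benjamini-Hochberg over all tested, threshold 0.05). The fit had 2 residual and 6.05 prior degrees of freedom. Intervals are 95% intervals of that fit and are not adjusted for the number of probe sets. A gene's value is that of its brightest probe set. Disagreement between probe sets was tested in the same way on their within-array log2 difference, over all genes.

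Named genes are the Sall and targeted genes, the 4 members of lowest p of each list of limb regulators, NuRD subunits and pluripotency factors, and the 3 genes nearest to each Sall gene. Tbx5, Gli3, Zbtb16, Shh, Hand2, Fgf10, Pou5f1 and the mesenchyme and other cell markers were named after their values were seen. The members and lists were chosen with earlier results of these data known. Alternatives covered the filter, floor, normalization, variance model, replicate block, cross-hybridising probe sets, the mean over probe sets and leaving out each array. The steps were tested on simulated data. Figures were drawn with matplotlib 3.10.9.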

Additional observations from a re-analysis of the deposited data

How the results depend on the processing

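Whether the brighter Sall3 probe set passes rests on single arrays and on the fit, and the number of arrays limits every value here. The mean of both Sall3 probe sets was above 0 (0.43). Filter, variance model, block and dropping other probe sets cannot change the fitted log2 difference of the brighter one. Leaving out 1 array could not turn its sign, since its pairings of arrays ran from 0.999 to 1.52. The brighter probe set was above 0 in all 14 alternatives that gave it a value, and most of these could not have turned it. It passed with the replicate number as a block (1.26, adjusted p = 0.0118) and, as given above, without either wild-type array; the cause was not tested. With 1 array left out, the differences ran from 1.08 to 1.44 for Sall3, from -0.18 to 0.49 for Sall1, from -0.25 to 0.18 for Sall2 and from -0.72 to -0.26 for Sall4, so Sall1 and Sall2 changed sign. The other Sall4 probe set ran from -0.84 to 0.017. The change of the gap between probe sets ran from -0.34 to 0.20 for Sall1, from -0.73 to 0.58 for Sall4 and from 1.29 to 2.01 for Sall3. The count of Sall probe sets past the threshold was 1 with the replicate block and 0 to 1 with an array left out, and 0 in the other alternatives. With the stricter filter the dimmer Sall3 probe set was not tested, and without cross-hybridising probe sets the second Sall4 probe set was not; their pairs were then not tested either. The count of pairs that disagree was 0 in all alternatives.

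Over the whole array, 56 probe sets passed (55.4% higher in Hox13dKO), 0 without the filter (3159 at an unadjusted p under 0.05), 1 without the intensity trend, 213 after median centring (68.1% higher) and 418 with the replicate block (69.4% higher). Without the intensity trend the adjusted p of Sall3 was 0.591. With 1 array left out the count ran from 11 (9.09% higher, without Hox13dKO replicate 2) to 525 (82.3% higher, without wild type replicate 2). The labels share replicate numbers but do not say whether same-numbered samples belong together. Same-numbered arrays deviated together with r = 0.198 over probe sets, and there are only 2 pairs. A shared batch was not tested. The block changed no other Sall call.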
